A study of Mus musculus with 166 samples.

Results

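Collagens, laminins and integrins were examined in poly(A) mRNA of mouse cerebellum from an allelic series of Huntington's disease knock-in mice. Members were chosen by gene symbol alone: every symbol of the form Col, a number, a and a digit, of the form Lama, Lamb or Lamc and a digit, or of the form Itga or Itgb with a digit or one of the letters l, m, v, x and e. Of 86 matching symbols, 82 reached 0.5 CPM (a gene's reads scaled to a common library size) in at least 8 of 166 libraries, out of 16525 genes of any kind that did so among 39179 in the table. Of the 82, 5 carry a matching symbol but encode other proteins (Col4a3bp, Itgb1bp1, Itgb1bp2, Itgb3bp and Itgbl1), which leaves 77 chains proper: 42 of 44 collagens, 11 of 11 laminins and 24 of 26 integrins. The symbols that missed the minimum were Col6a5, Col10a1, Itga2 and Itgb2l.

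Collagens are trimeric matrix proteins. Collagens I, III and V form the fibrils of connective tissue and in brain lie mostly in the meninges and around larger vessels, whereas collagen IV chains build the network of basement membranes. Laminins are heterotrimers of one alpha, one beta and one gamma chain that line the same membranes beneath the pia and around vessels. Integrins are alpha and beta heterodimers through which cells hold on to these proteins, and members of the beta-2 family (Itgal, Itgam and Itgax with Itgb2) are made by leukocytes and microglia.

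The mice were C57BL/6 and of both sexes, and were either wild type (WT) or heterozygous for an engineered Htt allele that carries human HTT exon 1 with a CAG repeat, the other allele being the endogenous mouse Htt. The lines were Q20, Q80, Q92, Q111, Q140 and Q175, named for repeat length, and tissue was taken at 2, 6 and 10 months (2m, 6m, 10m). Each of the 21 groups had 8 libraries, except for 7 each in Q111 and Q140 at 10m. WT mice were littermates of the Q20 line, and WT and Q20 together served as controls, as in the study. The lines were derived separately, Q175 having arisen by expansion in the Q140 line, so line and repeat length cannot be told apart. In bulk tissue, fewer cells of a type and less RNA per cell cannot be told apart either.

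Library totals ranged from 23448884 to 43066066 assigned reads, so 1 CPM stood for 23.4 to 43.1 reads. In 24 libraries (16 at 2m, 4 at 6m and 4 at 10m) long genes were low relative to short genes. In 30 of 82 members the median of those libraries was under 0.75 times the median of the other 142. Examples were Col19a1 at 3.40 against 18.1 CPM and Itga4 at 15.4 against 41.8 CPM. The share of all genes under that ratio was not drawn up, so the count is not by itself a result about the members. In 2 libraries, sex-linked genes went against the labels. At 6m the sample names of WT and Q175 followed another format than those of the other lines, and this library set entered the 6m fits, so that in effect Q175 was set against WT, and Q20 served the remaining lines. Mean Htt levels of the groups ranged from 174 to 295.3 CPM. Markers of meningeal fibroblasts, endothelium, mural cells, microglia, oligodendrocytes, astrocytes, granule cells and Purkinje cells were present in all libraries.

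Levels can be set against each other only per length, as FPKM (fragments per kilobase of transcript, scaled to library size). Means over all 166 libraries ran from 0.073 FPKM for Itgb6 to 26.4 FPKM for Itgb5. The integrin receptors were among the highest: Itgb5, a partner of the alpha-v chain, was followed by the laminin receptors Itga7 at 19.7, Itga3 at 14.9 and Itga6 at 10.6 FPKM, their common partner Itgb1 at 17.8, Itgav at 11.2 and Itgb8 at 10.1 FPKM. Among collagens, Col18a1, a basement membrane collagen and the source of endostatin, led with 21.8 FPKM, ahead of Col9a3 at 15.3 FPKM. The fibrillar chains Col27a1 (5.35), Col5a1 (5.03) and Col1a2 (4.76) were similar in level per length, while their relatives Col1a1 (1.10) and Col3a1 (0.803 FPKM) were lower. Of the laminins, Lamb1 had 6.72, Lamb2 5.31, Lamc1 5.02 and Lama2 3.04 FPKM. The collagen IV chains Col4a1, Col4a5 and Col4a2 lay at 2.43, 2.31 and 2.16 FPKM. Collagen receptors were low, with Itga10 at 2.39, Itga1 at 1.52 and Itga11 at 0.130 FPKM.

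The first question was which members differed between the mutant lines and the controls at each age, and which followed repeat length. Differences below are log2 fold changes with their standard error (SE) from edgeR's quasi-likelihood test, and p-values are adjusted over all 16525 genes (Benjamini-Hochberg) with a threshold of 0.05. In Q175 at 10m, 16 of 82 members passed, 5 higher and 11 lower, where 12.8% of all genes passed (5.6% higher and 7.16% lower). The median difference of the members was -0.16 against -0.005 over all genes, and 64 of 82 were below 0. Without the 4 libraries low in long genes at that age 30 passed, 7 higher and 23 lower, beside 26.2% of all genes (27 without the Q92 library M2 alone, beside 21.2%). With WT alone as controls 7 passed, beside 6.9% of all genes. Of these 7, 4 were higher (Itgax, Col12a1, Itgb2 and Itgav) and 3 lower, Col20a1 and Itgb7 among them. Itgb3 thus missed the threshold with WT alone, as did most of Col4a2, Col18a1, Col24a1, Lama3, Itgb8 and Itgb6. In Q175 at 6m, 7 members passed, 2 higher and 5 lower, beside 4.52% of all genes (2.07% higher and 2.45% lower). Without the 4 low libraries of that age 15 passed, beside 13.3%, and with WT alone 22, beside 16.6%. At 6m WT alone meant a fit of the WT and Q175 libraries only, none of them low in long genes. There Q175 was still set against WT, and the other lines no longer entered the estimate of the spread. In Q140 at 10m only Itgax (higher) and Itgb7 (lower) passed, beside 0.635% of all genes (0.315% higher and 0.321% lower), although 64 of 82 members again lay below 0 with a median of -0.14. No member passed in Q140 at 6m, in Q80, Q92 or Q111 at 6m or 10m, or in any line at 2m. Of all genes, 0.0363% passed in Q140 at 6m, 0.817% in Q92 and 0.115% in Q111 at 10m, 0.0182% in Q111 at 6m, 0.0424% in Q92 and 0.00605% in Q175 at 2m, and 0% in the other comparisons of these lines. At an unadjusted p under 0.05 there were 7 members (8.54%) in Q140 at 6m beside 9.74% of all genes, 2 to 12 members (2.44% to 14.6%) in the 6 comparisons of the shorter repeats beside 2.81% to 20.3%, and 1 to 10 members (1.22% to 12.2%) in the 5 comparisons at 2m beside 1.02% to 6.8%. DESeq2 gave 0 at 2m, 0 in Q140 at 6m and 1 in the shorter repeats (Col23a1, higher in Q111 at 6m, beside 87 genes of any kind), limma on log2(FPKM + 0.1) gave 0 in each, and without the Q92 library M3 at 6m 5 passed in Q111 at 6m, all higher (Col5a1, Col6a2, Col12a1, Col23a1 and Lamb2), beside 8.39% of all genes. Col23a1 also passed there without the Q20 library M2, beside 0.363% of all genes.

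**Figure D1:**
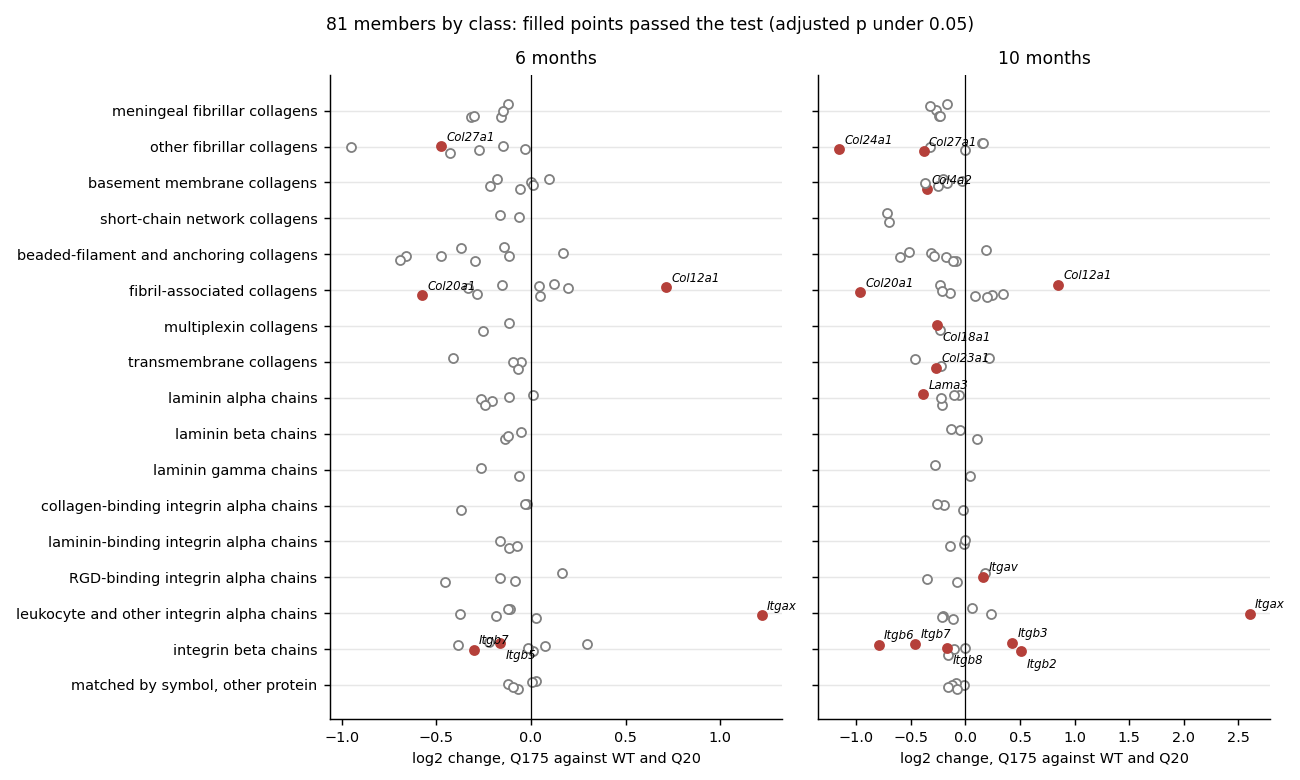
Log2 difference between Q175 and controls at 6m and 10m for 81 of the 82 members, by class. Each point is a gene, and filled labelled points passed the adjusted threshold, 6 at 6m and 15 at 10m. Itgax lies farthest to the right at both ages. The 5 chains of collagens I, III and V, drawn as meningeal fibrillar collagens, lie left of 0 as open points. Of these, Col5a1 did not rise with meningeal markers.

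Association with CAG length as a number was combined over 6m and 10m into one Z per gene. By this measure 18 of 82 members passed, 5 higher and 13 lower with longer repeats, beside 17% of all genes (7.62% higher and 9.4% lower). The higher members were Itgax (Z = 7.17), Col12a1 (6.98), Itgav (4.35), Itgb3 (4.17) and Itgb2 (3.72), 4 integrin chains and 1 collagen. Among the lower members with the smallest p were Col20a1 (Z = -5.18), Itgb7 (-5.05), Col27a1 (-4.35), Itga2b (-3.49), Itgb5 (-3.37), Col13a1 (-3.24) and Col24a1 (-3.23). The calls of Itga2b, Col13a1 and Col24a1 were lost with the meningeal and with the oligodendrocyte covariate and with Q20 alone as controls, and those of Col13a1 and Col24a1 also with the choroid plexus covariate. By family, 1 collagen was higher and 7 lower of 42 and 4 integrins were higher and 5 lower of 24. The calls rested on Q175: without that line 0 of 82 passed, beside 0.92% of all genes. Without the libraries low in long genes 40 passed, 7 higher and 33 lower, beside 30.3% of all genes, and with Q20 alone as controls 7 passed, beside 8.99%. With Q20 alone, the library set marked only Q175 at 6m, so the 6m slope then rested on the lines other than Q175. Repeat-length calls lost in that setting therefore cannot be read as an effect of the choice of controls.

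Among the collagens, the fibrillar chains classed as meningeal were taken first. Col5a1 was placed in this class by collagen type, though it did not rise with meningeal markers (below). Col1a1, Col1a2, Col3a1, Col5a1 and Col5a2, the chains of collagens I, III and V, were all below controls in Q175 at 6m (-0.12 to -0.31) and at 10m (-0.17 to -0.33) and in Q140 at 10m (-0.06 to -0.23), but none of these 15 differences passed the test. Without the libraries low in long genes Col1a2 (-0.28, adjusted p = 0.0357) and Col5a1 (-0.25, adjusted p = 0.00897) passed in Q175 at 10m. Col1a2 ranged from 15.7 to 21.7 CPM (median 18.6) in the 8 Q175 libraries at 10m and from 17 to 29.1 CPM (median 21.8) in the 16 control libraries, a difference of -0.27 ± 0.10 (SE, adjusted p = 0.0804). Col3a1 ranged from 1.41 to 3.74 CPM (median 3.08) in Q175 and from 2.79 to 4.43 CPM (median 3.68) in controls. The ranges overlapped for both chains. With repeat length over 6m and 10m only Col3a1 passed (Z = -2.88, adjusted p = 0.0288), with Col5a2, Col1a2 and Col1a1 just outside the threshold at adjusted p of 0.0612, 0.0718 and 0.0751.

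The relation of these chains to meningeal cells was read from the markers. Over all 166 libraries Col1a2 moved with the mean of 10 meningeal fibroblast markers (Pearson's r = 0.71, Spearman's rho = 0.73, permutation p = 1e-05, the smallest that 100000 permutations can give, adjusted over 26 relations 1.53e-05), and r was 0.71 without the 2 libraries farthest from the median and 0.72, 0.70 and 0.78 within 2m, 6m and 10m. For Col3a1 r was 0.58 and rho 0.54 (permutation p = 1e-05, adjusted 1.53e-05), with 0.57 without the 2 farthest libraries and 0.70, 0.57 and 0.72 within the ages. Col1a1 and Col5a2 gave weaker relations, r = 0.48 (rho = 0.49, permutation p = 1e-05, adjusted 1.53e-05, 0.47 without the 2 farthest) and r = 0.33 (rho = 0.37, permutation p = 3e-05, adjusted 4.33e-05, 0.31 without the 2 farthest). Col5a1 did not move with the markers in this way (r = -0.18, rho = -0.11, permutation p = 0.0207, adjusted 0.0245 for r and 0.168 for rho), and its r was -0.41, -0.23 and -0.02 within the ages. The markers themselves summed to 116 to 215 CPM (median 159) in Q175 at 10m and 153 to 289 CPM (median 214) in controls; 1 of 10 passed as lower in that comparison, 10 of 10 lay below 0, and 6 of 10 fell with repeat length over both ages. No marker of this list was at 0 in any library. With the marker mean as a covariate, the differences in Q175 at 10m were -0.05 for Col1a2, -0.03 for Col3a1, 0.04 for Col1a1, -0.09 for Col5a2 and -0.29 for Col5a1, none of them past the threshold, and the Z of Col3a1 for repeat length was -0.43 (adjusted p = 0.908).

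**Figure D2:**
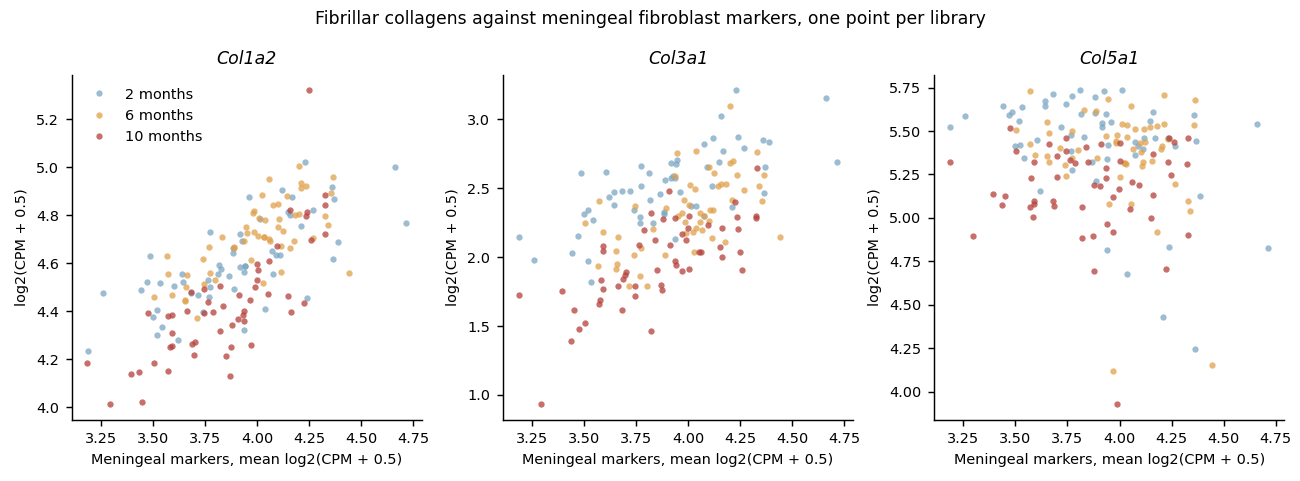
Levels of Col1a2, Col3a1 and Col5a1 (log2 of CPM + 0.5) against the mean of 10 meningeal fibroblast markers on the same scale, one point per library, coloured by age. Col1a2 and Col3a1 climb with the markers (r = 0.71 and 0.58), and Col5a1 does not (r = -0.18).

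The promoters of Col1a2 and Col3a1, whose levels moved together over the libraries (r = 0.65, rho = 0.63, permutation p = 1e-05, adjusted 1.53e-05, 0.62 without the 2 farthest libraries and 0.57 to 0.67 within the ages), are shown because, among the chains of collagens I, III and V, these stood nearest to the meningeal markers. Of other collagens, Col6a2 stood as near to those markers as Col3a1 (r = 0.58, rho = 0.57, permutation p = 1e-05, adjusted 1.53e-05). Col6a1 (r = 0.43), Col13a1 (0.39) and Col6a3 (0.27) stood farther off. Both are the 250 bases before the RefSeq start in GRCm38.p6, plus strand, Col1a2 at chr6:4505368-4505617 and Col3a1 at chr1:45311288-45311537, with the CCAAT box (CCAAT on either strand) in capitals. The box occurs once for Col1a2, 109 bases before the start, and not in the Col3a1 window, and 33.8% of all 32851 RefSeq promoter windows of this length hold it, so it is common. Of the 82 members, 58 had a promoter entry.
Col1a2: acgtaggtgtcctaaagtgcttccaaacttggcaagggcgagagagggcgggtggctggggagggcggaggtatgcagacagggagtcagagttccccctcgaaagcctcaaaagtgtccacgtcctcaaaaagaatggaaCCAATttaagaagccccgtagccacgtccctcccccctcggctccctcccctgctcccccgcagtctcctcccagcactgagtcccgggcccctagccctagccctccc
Col3a1: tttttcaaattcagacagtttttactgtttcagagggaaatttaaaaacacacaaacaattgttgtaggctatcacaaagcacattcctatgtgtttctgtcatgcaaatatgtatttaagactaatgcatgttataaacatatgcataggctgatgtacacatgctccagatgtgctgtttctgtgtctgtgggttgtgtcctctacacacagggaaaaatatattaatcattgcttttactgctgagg

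Of the other fibrillar collagens, Col27a1 and Col24a1 were lower in Q175 at 10m. In Q140 they were at -0.26 ± 0.11 and -1.41 ± 0.40 at 10m, and at 0.18 ± 0.08 and 0.255 ± 0.51 at 6m. None of these Q140 differences passed in the main fit. Col24a1 at 10m did pass with DESeq2 (-1.42, adjusted p = 0.0195) and without the libraries low in long genes (-1.44, adjusted p = 0.0318). It also passed with the index of long against short genes or the microglial marker mean as a covariate (adjusted p = 0.0443 and 0.0283). Col27a1, a fibril-forming chain best known from cartilage, ranged from 16.2 to 31.8 CPM (median 23) in Q175 at 10m against 22.2 to 39 CPM (median 30) in controls, with -0.38 ± 0.10 (adjusted p = 0.00701), and 7 of 8 Q175 libraries lay below the control median. The groups overlapped. At 6m it ranged from 23.4 to 28.9 CPM (median 26.3) in Q175, from 31.8 to 42.2 CPM (median 36.7) in WT and down to 19.9 CPM in the Q20 libraries, with -0.48 ± 0.08 (adjusted p = 3.58e-05). Every Q175 library lay below every WT library there, a separation in one direction or the other that 3.6% of all genes and 4 of 82 members showed (Col12a1, Col20a1, Col27a1 and Itgav). Col24a1 ranged from 0.391 to 1.92 CPM (median 0.615) in Q175 at 10m and from 0.564 to 4.49 CPM (median 1.42) in controls (-1.16 ± 0.37, adjusted p = 0.0266). Col27a1 moved with 10 oligodendrocyte markers over all libraries (r = 0.43, rho = 0.45, permutation p = 1e-05, adjusted 1.53e-05, 0.45 without the 2 farthest libraries), but within ages r was -0.11, 0.29 and 0.53. Those markers summed to 3219 to 4695 CPM (median 3950) in Q175 at 10m and 4203 to 6100 CPM (median 5319) in controls, 7 of 10 being lower there and 9 of 10 lower with repeat length. With the mean of these markers as a covariate, Col27a1 was at -0.21 ± 0.13 (adjusted p = 0.295) and Col24a1 at 0.39 ± 0.35 (adjusted p = 0.497) in Q175 at 10m, neither past the threshold, whereas at 6m Col27a1 stayed at -0.43 ± 0.10 (adjusted p = 0.00283). With WT alone as controls Col27a1 missed the threshold at 10m.

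The fibril-associated collagens held the collagen differences with the smallest p in Q175 at 10m, in opposite directions. At 6m Col27a1 had the smallest p among collagens. Col12a1, which binds along collagen I fibrils, ranged from 23.2 to 28.5 CPM (median 25.1) in Q175 at 10m, 15 to 19.9 CPM (median 17.1) in Q140 and 10.6 to 21.2 CPM (median 14) in controls. Every Q175 library stood above every control, as 1.92% of all genes also did in one direction or the other, and the difference was 0.85 ± 0.11 (1.8-fold, adjusted p = 6.66e-08). At 6m Q175 again did not overlap with controls, with 21.7 to 27.3 CPM (median 23) against 4.81 to 16.3 CPM (median 14.2), a separation found in 1.3% of all genes, and the difference was 0.71 ± 0.13 (adjusted p = 0.000246). At 2m the difference was 0.03 ± 0.17. In Q140 at 10m Col12a1 was 0.26 ± 0.12 above controls (adjusted p = 0.511).

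Col20a1, a less studied member of the same subfamily, went the other way. It ranged from 1.69 to 3.54 CPM (median 2.52) in Q175 at 10m, 3.35 to 4.62 CPM (median 4.6) in Q140 and 3.52 to 5.78 CPM (median 5.04) in controls, so that the highest Q175 library reached just past the lowest control. The difference was -0.97 ± 0.13 (0.512-fold, adjusted p = 2.99e-07), and at 6m it was -0.58 ± 0.10 (adjusted p = 0.000129), with 2.76 to 4.65 CPM (median 3.68) in Q175 and 4.68 to 6.51 CPM (median 5.39) in WT. With the oligodendrocyte marker mean as a covariate Col12a1 stood at 0.79 ± 0.15 (adjusted p = 0.000199) and Col20a1 at -1.23 ± 0.17 (adjusted p = 2.6e-07) in Q175 at 10m. Col20a1 shares 79 exonic bases with another annotated gene on the same strand, BX649560.1, at 6.67 CPM on average, so some of its reads may be placed with either gene. The other 7 fibril-associated chains lay between -0.24 and 0.36 in Q175 at 10m, and none passed.

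**Figure D3:**
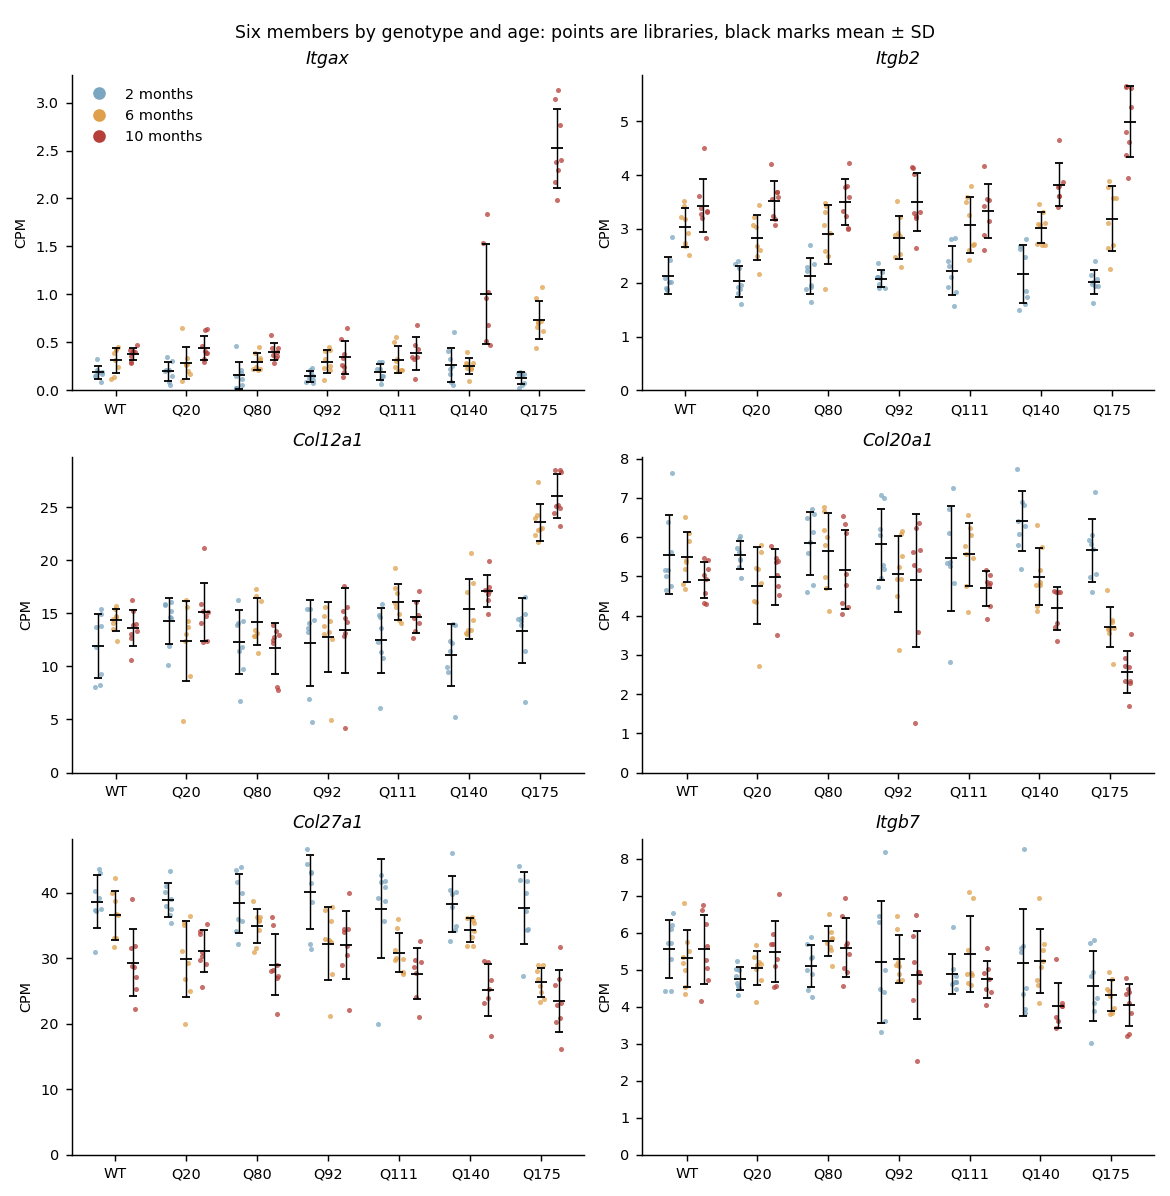
CPM of Itgax, Itgb2, Col12a1, Col20a1, Col27a1 and Itgb7 in every library, by genotype and age, with mean and SD in black; n = 8 per group, 7 for Q111 and Q140 at 10m. Itgax and Col12a1 in Q175 at 10m stand clear of all controls, and Col20a1 in Q175 is lowest at 10m, with a median of 2.52 CPM.

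The basement membrane collagens differed little. Col4a2 was lower in Q175 at 10m, at 7.79 to 13.4 CPM (median 10.9) against 8.61 to 17.5 CPM (median 13.9) in controls (-0.36 ± 0.11, adjusted p = 0.0197), and its partner Col4a1 was at -0.25 ± 0.10 (adjusted p = 0.111). The pair, which shares a bidirectional promoter and forms one trimer, moved together over the libraries (r = 0.87, rho = 0.85, permutation p = 1e-05, adjusted 1.53e-05, 0.87 without the 2 farthest libraries and 0.84 to 0.86 within the ages), and their first exons overlap by 22 bases on opposite strands. All 6 collagen IV chains were below 0 in Q175 at 10m, with a median of -0.23. Col18a1 was also lower there, at 74.3 to 108 CPM (median 86.1) against 83.4 to 124 CPM (median 107) in controls (-0.26 ± 0.08, adjusted p = 0.0202). The transmembrane collagen Col23a1 was lower in all 8 Q175 libraries than the control median, at 6.34 to 8.43 CPM (median 7.2) against 7.66 to 10 CPM (median 8.84), with -0.27 ± 0.06 (adjusted p = 0.00164). It missed the threshold with the oligodendrocyte covariate (-0.20 ± 0.08, adjusted p = 0.113) and with WT alone as controls. Without the libraries low in long genes Col4a1 (-0.25, adjusted p = 0.0408) and Col4a5 (-0.18, adjusted p = 0.00637) passed as well. Of the neighbouring vessel cells, mural markers summed to 242 to 290.2 CPM in Q175 and 275 to 321 CPM in controls, with 3 of 10 lower at 10m and 6 of 10 lower with repeat length, and endothelial markers to 228 to 281 CPM and 255 to 302 CPM, with 1 of 10 lower at 10m. Their part in the collagen IV and XVIII values was not tested.

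Collagen VIII, which lines several epithelia and endothelia, and the collagen IV chains Col4a3 and Col4a4 moved with markers of the choroid plexus, the ventricular epithelium that makes cerebrospinal fluid. The summed level of 12 choroid plexus markers split the libraries into 85 with a mean of 0.67 to 2.11 and 81 with a mean of 2.57 to 6.16 (log2 of CPM + 0.5), with nothing between. Between these sets 6 of 82 members differed by more than 1.5 times in median: Col8a1 with 1.03 against 7.28 CPM, Col8a2 with 2.22 against 6.97 CPM, Col4a4 with 0.472 against 1.37 CPM, Col4a3 with 1.02 against 2.42 CPM, Col24a1 with 0.67 against 1.27 CPM and Col14a1 with 0.603 against 1.06 CPM. The median ratio over the 82 members was 1.05. The share of all genes past 1.5 times was not drawn up, so the count of 6 is not by itself a result about the members. Within the set with more choroid plexus, r with the markers was 0.94 for Col8a1, 0.93 for Col8a2, 0.70 for Col4a4 and 0.69 for Col4a3, given as a description over 81 libraries. Only 1 of 7 Q140 libraries at 10m was in this set, against 7 of 8 Q20 and 5 of 8 WT, and 4 of 8 in Q175. Col8a1 and Col8a2 lay 0.70 and 0.72 below controls in Q175 and 0.85 to 0.92 below in Q140 at 10m, without passing.

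**Figure D4:**
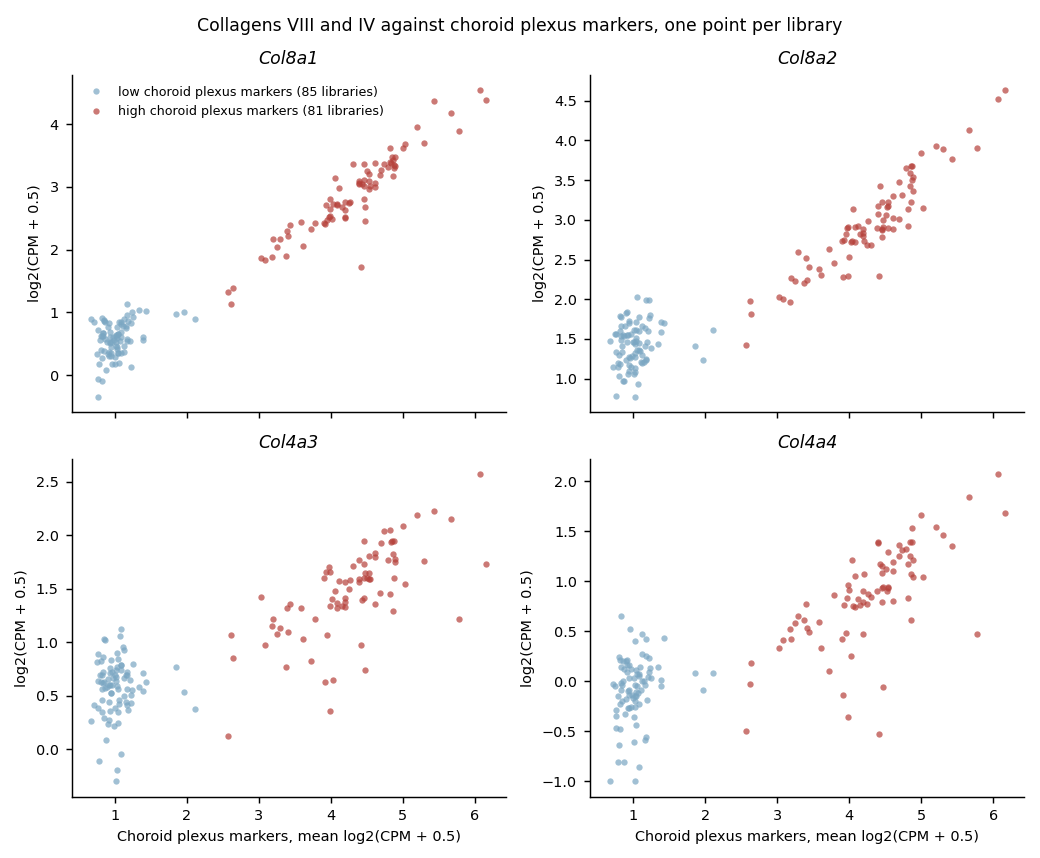
Col8a1, Col8a2, Col4a3 and Col4a4 (log2 of CPM + 0.5) against the mean of 12 choroid plexus markers, one point per library. The 81 libraries with high marker levels climb with the markers for Col8a1 and Col8a2 (r = 0.94 and 0.93 within that set), and the 85 low libraries form a cloud at the left.

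Of the laminins, Lama3, the alpha-3 chain best known from epithelial basement membranes, was lower in Q175 at 10m, at 1.44 to 3.14 CPM (median 1.98) against 1.6 to 3.41 CPM (median 2.61) in controls, with -0.39 ± 0.13 (adjusted p = 0.0437). The groups overlapped, and Lama3 did not pass at 6m. The more abundant chains Lamb1, Lamb2, Lamc1 and Lama2 did not pass, and Lamb2 stood at -0.05 ± 0.10. Of the 11 laminins, 10 lay below 0 in Q175 at 6m and 9 at 10m, with medians of -0.13 at both ages. Without the libraries low in long genes Lama1 (-0.23), Lamb1 (-0.14) and Lamc3 (-0.31) passed too at 10m, at adjusted p of 0.0191, 0.0281 and 0.0181.

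Among the integrins, Itgax and Itgb2 of the beta-2 family of leukocytes and microglia rose. Itgax, the alpha-X chain (CD11c), ranged from 1.99 to 3.14 CPM (median 2.39) in Q175 at 10m, from 0.47 to 1.84 CPM (median 0.965) in Q140 and from 0.288 to 0.643 CPM (median 0.397) in controls. All 8 Q175 libraries stood above every control, and those of Q140 overlapped with them. The difference was 2.60 ± 0.20 in Q175 (6.08-fold, adjusted p = 1e-14) and 1.31 ± 0.22 in Q140 (adjusted p = 0.000283). At 6m Itgax had 0.445 to 1.08 CPM (median 0.708) in Q175 and 0.119 to 0.457 CPM (median 0.353) in WT, the group it was compared with, which gave 1.22 ± 0.27 (adjusted p = 0.00188), and in Q140 it was at -0.20 ± 0.29. Q111 and Q92 at 10m were at -0.08 ± 0.25 and -0.21 ± 0.24. Itgax reached 0.5 CPM in 31 libraries, 21 of them Q140 or Q175 at 6m or 10m and 10 elsewhere.

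Itgb2, the beta partner of this family, ranged from 3.95 to 5.66 CPM (median 5.04) in Q175 at 10m and from 2.83 to 4.51 CPM (median 3.36) in controls, and all 8 Q175 libraries lay above the control median (0.51 ± 0.08, adjusted p = 6.45e-06). At 6m it was at 0.07 ± 0.11. Itgam (CD11b), the most abundant alpha partner, stood at 10.9 to 13.3 CPM (median 12.1) against 7.97 to 12.1 CPM (median 10.2), 0.23 ± 0.09 above controls without passing (adjusted p = 0.0768), and Itgal was at -0.22 ± 0.19. With repeat length over both ages Itgal was lower (Z = -2.85, adjusted p = 0.0305), a call lost with the meningeal or oligodendrocyte covariate and with WT alone or Q20 alone as controls. Of 10 microglial markers, Fcrls (0.58 ± 0.09), Trem2 (0.44 ± 0.11) and C1qa (0.28 ± 0.09) rose in Q175 at 10m and none passed with repeat length over both ages. The marker sums were 190 to 229 CPM (median 201) in Q175, 169 to 203 CPM (median 183) in Q140 and 161 to 210 CPM (median 183) in controls, with no marker at 0. With the marker mean as a covariate Itgax was at 2.30 ± 0.22 (adjusted p = 2.78e-11) and Itgb2 at 0.33 ± 0.08 (adjusted p = 0.00148) in Q175 at 10m, and without the libraries low in long genes Itgam passed (0.21, adjusted p = 0.00365).

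The promoters of Itgax and Itgam are shown because both chains pair with Itgb2 and lie on the same chromosome while only Itgax passed the test. They are the 250 bases before the RefSeq start in GRCm38.p6, plus strand, Itgax at chr7:128129300-128129549 and Itgam at chr7:128062390-128062639, with the purine-rich core of the myeloid factor PU.1 (GAGGAA, or TTCCTC for the opposite strand) in capitals. The core occurs on each strand once for Itgam, 84 and 15 bases before the start, and not in the Itgax window, and 23.3% of all 32851 windows hold it on either strand.
Itgax: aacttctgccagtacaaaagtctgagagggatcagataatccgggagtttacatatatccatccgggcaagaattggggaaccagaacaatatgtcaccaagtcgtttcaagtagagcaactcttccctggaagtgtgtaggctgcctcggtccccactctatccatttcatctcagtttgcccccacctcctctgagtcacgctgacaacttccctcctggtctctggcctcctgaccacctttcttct
Itgam: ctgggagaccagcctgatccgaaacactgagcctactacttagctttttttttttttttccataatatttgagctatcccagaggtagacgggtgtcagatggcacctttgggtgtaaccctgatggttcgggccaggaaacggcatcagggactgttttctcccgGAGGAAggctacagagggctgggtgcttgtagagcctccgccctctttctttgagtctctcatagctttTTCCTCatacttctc

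The alpha-v group changed by less. Itgav, the alpha chain of receptors for vitronectin and fibronectin, ranged from 72.6 to 88.7 CPM (median 83.9) in Q175 at 10m and from 63.3 to 89 CPM (median 72.8) in controls (0.16 ± 0.05, adjusted p = 0.0166), a call that was lost with limma, with Q20 alone as controls and with the oligodendrocyte covariate. Itgb3, one of its partners, ranged from 2.32 to 4.72 CPM (median 3.17) and from 1.62 to 3.16 CPM (median 2.4), with 0.43 ± 0.14 (adjusted p = 0.0272). That call was lost with WT alone as controls. The other partners were lower: Itgb8, which with alpha-v releases TGF-beta from its latent form, at 66.8 to 98.1 CPM (median 86.7) against 78.2 to 120 CPM (median 95.5) with -0.17 ± 0.06 (adjusted p = 0.0429), and Itgb6 at 0.09 to 0.365 CPM, a level of few reads, with -0.80 ± 0.28 (adjusted p = 0.047). Itgb5 had 70.1 to 83.2 CPM (median 72.2) against 70.4 to 96.2 CPM (median 82.3) at 10m (-0.16 ± 0.06, adjusted p = 0.0884), and at 6m it had 73.8 to 83.5 CPM (median 78.1) against 80.1 to 93.4 CPM (median 88) in WT, with -0.16 ± 0.04 (adjusted p = 0.0146), and missed the threshold without any one of 5 libraries (Q175 M1 and M4, WT F1, F2 and F3; highest adjusted p = 0.0642). All of these ranges overlapped. The top of the Itgav control range at 10m, 89 CPM, was the Q20 library F5, whose sex-linked genes went against its label.

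Itgb7, which pairs with Itga4 on lymphocytes, was lower in both lines with the longest repeats at 10m. It ranged from 3.21 to 4.78 CPM (median 4.22) in Q175, 3.42 to 5.28 CPM (median 4.03) in Q140 and 4.15 to 7.04 CPM (median 5.47) in controls, with overlap in both cases. The differences were -0.46 ± 0.10 in Q175 (adjusted p = 0.000406) and -0.45 ± 0.10 in Q140 (adjusted p = 0.013), and -0.30 ± 0.09 in Q175 at 6m (adjusted p = 0.0431). With WT alone or Q20 alone as controls, or with limma, the difference in Q140 missed the threshold (highest adjusted p = 0.102). Itga2b, the platelet alpha-IIb chain, and Col13a1, a transmembrane collagen of the neuromuscular synapse, passed with repeat length over both ages but in neither age of Q175, with medians at 10m of 0.817 CPM in Q175 against 0.949 CPM and of 1.39 against 1.74 CPM. Without the libraries low in long genes both were lower in Q175 at 6m (Itga2b at -0.45, adjusted p = 0.041, and Col13a1 at -0.41, adjusted p = 0.031). The laminin receptors Itga3, Itga6 and Itga7 did not pass, and Itga6 had a median of 36.7 CPM in both Q175 and controls at 10m.

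A second question was whether the association with repeat length itself differed between 2m and 10m. The slope per 100 CAG was steeper at 10m for Itgax by 1.54 ± 0.27 (adjusted p = 0.000288), more negative for Col20a1 by -0.48 ± 0.11 (adjusted p = 0.0108) and steeper for Col12a1 by 0.46 ± 0.12 (adjusted p = 0.0421). These 3 of 82 members passed where 0.52% of all genes did. The slopes at 10m were 1.51 ± 0.17, -0.42 ± 0.09 and 0.43 ± 0.08 for these genes. For Col12a1 the difference between ages missed the threshold without any one of 26 of the 110 libraries, all 8 of Q175 at 10m among them (highest adjusted p = 0.101). Between sexes at 10m, 1 member passed, beside 0.363% of all genes. Without the Q92 library M2, Col4a1 passed too, higher in males by 0.26 (adjusted p = 0.0159), and with Q20 alone as controls no member passed, where 0.315% of all genes did.

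The last question was how members changed with age in WT and Q20 mice. Between 2m and 10m, 28 of 82 members passed, 13 higher and 15 lower, beside 38.7% of all genes (16.2% higher and 22.6% lower). The median of the members was 0.01 against -0.004 over all genes. With the microglial marker mean as a covariate, an alternative chosen after the data were seen, 46 passed, beside 71.2% of all genes. The beta-2 family rose: Itgb2 from 1.6 to 2.85 CPM (median 1.98) at 2m to 2.83 to 4.51 CPM (median 3.36) at 10m, with 0.74 ± 0.07 (adjusted p = 6.31e-09), Itgam by 0.66 ± 0.08 (adjusted p = 4.56e-07) and Itgax by 1.07 ± 0.18 (adjusted p = 7.29e-05). The 2m and 10m libraries barely overlapped for Itgb2. For Itgam the medians were 6.61 and 10.2 CPM and for Itgax 0.191 and 0.397 CPM, and in the same comparison 8 of 10 microglial markers were higher and 1 lower. Over libraries of all genotypes, r with the mean of those markers was -0.70, -0.25 and 0.10 for Itgam within 2m, 6m and 10m. In the same order it was 0.20, 0.37 and 0.68 for Itgb2, 0.21, 0.14 and 0.53 for Itgax and -0.48, 0.11 and -0.17 for Itgal. Itgav, which also rose in Q175, went from a median of 52.2 to 72.8 CPM (0.56 ± 0.06, adjusted p = 3.34e-08).

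Of the members that fell with age, Col23a1 did so without overlap, from 11.4 to 16.5 CPM (median 14.8) to 7.66 to 10 CPM (median 8.84), with -0.73 ± 0.05 (adjusted p = 8.11e-12). Col3a1 fell from a median of 5.7 to 3.68 CPM (-0.62 ± 0.10, adjusted p = 2.56e-05), Col27a1 from 38.5 to 30 CPM (-0.36 ± 0.06, adjusted p = 5.54e-05) and Itga7, the main laminin receptor by level, from 89.9 to 74.1 CPM (-0.31 ± 0.05, adjusted p = 9.34e-06). Col23a1 and Col27a1 were thus lower both with age and in Q175, while Itgb3 fell with age by 0.40 on the log2 scale and was higher in Q175. Both comparisons use the control libraries of 10m, so their directions are not independent. Of the 16 control libraries at each age, 4 at 2m and 1 at 10m belonged to those low in long genes.

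**Figure D5:**
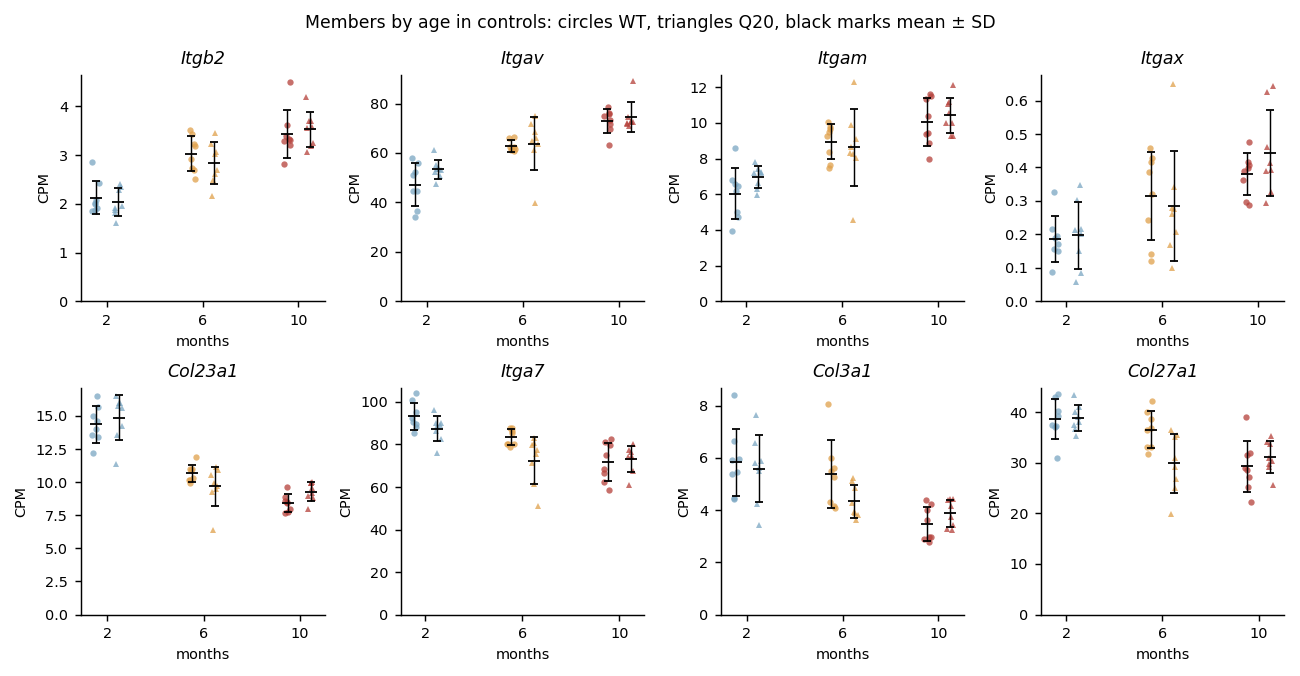
CPM of the 4 higher and 4 lower members with the smallest p for age, in WT (circles) and Q20 (triangles) at 2m, 6m and 10m, one point per library with mean and SD in black (n = 8 each). Col23a1 drops from a median of 14.8 CPM at 2m to 8.84 CPM at 10m without overlap, and Itgb2, Itgam, Itgav and Itgax climb.

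Other genes of the pathway were read from 4 lists. These were chosen with earlier results of these data known, so their counts beside the shares of all genes are a description only. With repeat length over 6m and 10m 7.62% of all genes rose and 9.4% fell. By the same test, 3 of 24 other matrix glycoproteins rose and 7 fell, led by Tnc (tenascin-C, Z = 9.98), Comp (Z = 8.85) and Fbln5 (fibulin-5, an elastic fibre protein, Z = -5.89); in Q175 at 10m these differed by 0.91 ± 0.09, 1.08 ± 0.09 and -0.73 ± 0.15. Of 25 enzymes and chaperones of collagen processing, 1 rose and 6 fell, led by Bmp1, which cleaves procollagen C-propeptides (Z = -7.85), and by the lysyl and prolyl modifying enzymes P3h3 (-4.06) and Plod1 (-4.04). Of 17 other receptors for collagen and laminin, 2 rose and 4 fell, with Sdc1 at Z = -7.04, Sdc2 at 5.14 and Sgca at -3.75. Of 25 integrin adaptors and kinases, 5 rose and 3 fell, with Parva (alpha-parvin, Z = 8.42), Fyn (5.24) and Pxn (paxillin, 4.37) first. The median Z of the 4 lists was -1.55, -1.61, -0.52 and 0.44 beside -0.21 over all genes and -1.54 over the members.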

How the data were processed

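Per the labels, total RNA of flash frozen cerebellum was extracted with a miRNeasy kit, and poly(A)-enriched libraries were sequenced on Illumina instruments; CASAVA 1.8.2 is the tool named in the processing notes. The authors deposited expected counts and FPKM per Ensembl gene, one column per library. For these tables, the sources used here do not give the aligner, genome build, counting program or use of strand. Expected counts were rounded, and genes with at least 0.5 CPM in at least 8 libraries were kept. They were fitted per age with edgeR 4.0.16 (TMM, quasi-likelihood test) in R 4.3.3, with sex and, at 6 months, library set as covariates, WT and Q20 as controls and Benjamini-Hochberg adjustment over 16525 genes. CAG length (7 for WT) entered as a number, and signed Z values of 6 and 10 months were summed over the square root of 2, following the study's meta-analysis. Age was fitted in controls, and the slope difference over 2 and 10 months. The scripts were tested on simulated data. FPKM served for levels and for an alternative with limma 3.58.1 (log2 of FPKM + 0.1). DESeq2 1.42.0 was another alternative. Members and lists were chosen with earlier results of these data known. Values by library are given for the 8 higher and 8 lower members with the smallest p for repeat length and up to 4 in each direction in the other comparisons, among those past the threshold, and levels for the 3 highest members of a class. Further members named, such as Col4a2, Lama3, Itgb8, Itgb6, Itgam and the collagens I, III and V, were named after their values were seen. Marker means of microglia and oligodendrocytes as covariates were alternatives added after seeing the data. Exon overlaps and genome positions are from the reference annotation of GRCm38, and promoters from RefSeq. Labels give no separate cultures or litters beyond one mouse per library. The deposited tables hold no comparison columns. The results of 1 member, which stays in the counts, are not reported here.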

Additional observations from a re-analysis of the deposited data

Results flagged for a closer look

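For 12 members, the WT, Q20, Q140 and Q175 groups at 6m and 10m were searched for a library far from the rest of its group. In 17 of 96 group values the gap to the nearest other library took more than Dixon's 95% share of the range, where chance gives about 1 in 20. Of these 17, 3 were low values of the Q20 library F3 at 6m, one of those low in long genes: Itgav at 39.65 CPM (61 to 74.9 in the others), Col20a1 at 2.714 CPM (4.36 to 5.81) and Itgb5 at 61.4 CPM (75.4 to 87.8). The other 14 were high values in libraries that were not low in long genes.

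Among integrins, Itgax was at 0.6483 CPM in the Q20 library M4 at 6m, against 0.0997 to 0.341 CPM in its group. Itgb2 was at 4.51 CPM in the WT library M4 at 10m (2.83 to 3.61 in the others) and at 4.662 CPM in the Q140 library F2 at 10m (3.42 to 3.87). Itgav reached 79.66 CPM in the Q175 library M3 at 6m (67.8 to 71.4) and 89 CPM in the Q20 library F5 at 10m (70.8 to 74.7), a library whose sex-linked genes went against its label. Itgb3 was at 3.722 CPM in the Q175 library F4 at 6m (3.1 to 3.34), and Itgb5 at 83.16 CPM in the Q175 library M4 at 10m (70.1 to 75.6). Itgb7 was at 5.282 CPM in the Q140 library F1 at 10m (3.42 to 4.11).

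Among collagens, Col12a1 was at 27.34 CPM in the Q175 library M3 at 6m (21.7 to 24.3) and at 21.16 CPM in the Q20 library F3 at 10m (12.3 to 15.9). Col13a1 was at 3.14 CPM in the WT library F3 at 6m (1.62 to 2.31) and at 2.012 CPM in the Q175 library F2 at 10m (1.29 to 1.5). Col24a1 was at 4.253 CPM in the Q20 library F2 at 6m (0.487 to 1.89) and at 6.298 CPM in the Q140 library F3 at 6m (0.431 to 2.69).

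The slope with repeat length differed between 10m and 2m, by a test of that difference, for Itgax (1.537 per 100 CAG), Col12a1 (0.4632) and Col20a1 (-0.4759).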

How the results depend on the processing

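The 38 results given for single members missed the threshold in 44 of 572 values from alternatives that left out no single library, and passed in all but 31 of 2726 values with 1 library left out, and 20 passed in every one of both. The sign turned in 2 further values: Col27a1 with repeat length without Q175 (Z = 0.12) and Col24a1 with the oligodendrocyte marker mean as a covariate (Z = 1.78). Counts that moved by more than 1.5 times follow, with the share of all genes called where it was drawn up. That share moved between settings too, so the counts here and in the next paragraph are not by themselves a result about the members. In Q175 at 10m (16 members, beside 12.8% of all genes) they were 9 with limma on FPKM, 30 without the libraries low in long genes (beside 26.2%), 28 with the long-gene index as a covariate, 27 without the libraries of low connectivity to the rest, 7 with WT alone (beside 6.9%) and 10 with the oligodendrocyte covariate. In Q175 at 6m (7, beside 4.52%) the same settings gave 15 without the low libraries (beside 13.3%), 17 with the index, 15 without low connectivity and 22 with the WT and Q175 libraries alone (beside 16.6%). For repeat length (18, beside 17%) they gave 40 (beside 30.3%), 35, 36, 11 with the meningeal covariate, 7 with Q20 alone (beside 8.99%) and 0 without Q175 (beside 0.92%). In Q140 at 10m (2, beside 0.635%) there was 1 with limma, 1 with WT alone (beside 0.145%) and 1 with Q20 alone (beside 0.369%). In Q80, Q92 and Q111 (0) there was 1 with DESeq2 (in Q111 at 6m, beside 0.526%) and 1 with the oligodendrocyte covariate (Itga2b in Q92 at 10m). Age gave 46 (beside 71.2%) instead of 28 (beside 38.7%) with the microglial covariate. Sex (1, beside 0.363%) gave 2 without the low libraries (beside 0.756%), 2 with the index, 2 with the meningeal covariate, 2 without low connectivity and 0 with Q20 alone (beside 0.315%). The cause was not tested. Without the 2 libraries whose sex-linked genes went against their labels, 12 members passed in Q175 at 10m, 7 in Q175 at 6m, 2 in Q140 at 10m, 17 for repeat length, 24 for age and 1 for sex. The covariates of microglia and oligodendrocytes were chosen after seeing the data. With 1 library left out the counts ran from 11 to 27 in Q175 at 10m, 5 to 8 in Q175 at 6m, 2 to 3 in Q140 at 10m, 0 to 5 in the shorter repeats, 15 to 23 for repeat length, 24 to 35 for age, 2 to 3 for the slope difference and 1 to 2 for sex, and stayed at 0 in Q140 at 6m and at 2m.

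The sample names carry the same replicate labels in every group, but these mark no shared animal or day, and deviations from the group means correlated at a mean of 0.12, 0.11 and 0.10 for the same label and 0.08, 0.13 and 0.11 for different labels at 2m, 6m and 10m. A replicate block gave 11 members in Q175 at 10m, 6 in Q175 at 6m, 2 in Q140 at 10m, 17 for repeat length, 25 for age and 3 for the slope difference. Sex could not be tested with the block, which contains it. WT alone could not be fitted for Q140 at 6m, nor Q20 alone for Q175 at 6m, since the library set then equals the group. Likewise, repeat length with Q20 alone drew its 6m slope from the lines other than Q175. Members with few reads, such as Itgb6 and Itgax in controls, are limited by depth.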

Other observations

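Outside the beta-2 family and collagens I, III and V, several matrix chains also changed with age in WT and Q20 cerebellum. Collagen IX, a cartilage-type collagen that binds to fibril surfaces, fell in 2 of its chains: Col9a1 from 0.735 to 1.43 CPM (median 1.22) at 2m to 0.46 to 1.19 CPM (median 0.774) at 10m (-0.54 ± 0.10, adjusted p = 0.000324) and Col9a3 from a median of 42.8 to 32.2 CPM (-0.62 ± 0.15, adjusted p = 0.00208). The ranges overlapped for both chains. Collagen VI, a beaded filament of cell surroundings, did not move as one: Col6a3 rose from a median of 2.45 to 4.3 CPM (0.72 ± 0.16, adjusted p = 0.00118) and Col6a6 from 0.517 to 0.796 CPM (0.70 ± 0.20, adjusted p = 0.00728), while Col6a2 fell by 0.39 on the log2 scale (adjusted p = 0.0102). Without the libraries low in long genes Col6a2 missed the threshold. Col6a3 (0.66, adjusted p = 0.00214) and Col6a6 (0.47, adjusted p = 0.0341) still passed.

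All 5 laminin alpha chains lay above 0 with age, and Lama3 (0.69 ± 0.14, adjusted p = 0.000403) and Lama1 (0.26 ± 0.07, adjusted p = 0.00721) passed. Lama3 had a median of 1.65 CPM at 2m and 2.61 CPM at 10m. Lamb3, the beta chain that assembles with alpha-3, went the other way, from a median of 3.21 to 2.67 CPM (-0.29 ± 0.08, adjusted p = 0.00424). Col13a1 fell from 2.39 to 1.74 CPM in median (-0.45 ± 0.08, adjusted p = 0.000194). Lama3 and Itgb8 rose with age and were lower in Q175 at 10m, whereas Col13a1 fell with age and fell with repeat length. The comparisons share the control libraries of 10m, so their directions are not independent.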
